A study of Sus scrofa with 9 samples.

Results

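The genes described here are 40 genes that serve protein folding, quality control and export in the endoplasmic reticulum (ER). Their symbols formed a fixed list, chosen with earlier results of these data known, and each was looked up by name among the 19535 genes of the deposited count table. All 40 were found, and 39 of them had enough counts to be tested. RNA came from porcine valvular interstitial cells (PVICs), the fibroblast-like cells inside the aortic valve leaflet, isolated from pigs aged 4 to 5 months. There were 3 groups of 3 RNA-seq libraries each. The control cells grew in plain DMEM. The OIM cells received an osteogenic induction medium with 50 µg/mL ascorbic acid, 1e-07 mol/L insulin and, as the phosphate source, sodium dihydrogen phosphate at 2 mmol/L. The methods of the study describe this medium as a commercial product with these supplements, so it may differ from the control medium in more than these. The bFGF cells received the same OIM together with 50 ng/mL basic fibroblast growth factor, so bFGF was never given without OIM and its effect on cells in plain medium was not measured. The labels give 3 days of treatment and the methods of the study give a shorter time, and neither says whether the libraries of a group came from separate animals or separate cultures. The p-values therefore measure the spread between these libraries, which may be technical.

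Proteins that are to be secreted enter the ER through the SEC61 channel, are folded there by chaperones such as BiP and by disulfide isomerases, and leave in COPII vesicles. Chaperones that escape carry a short signal at their end that KDEL receptors recognise in the Golgi, and COPI vesicles bring them back. When unfolded protein accumulates, the sensors ATF6, IRE1 (gene ERN1) and PERK (gene EIF2AK3) start the unfolded protein response, which raises chaperone and degradation genes. CREB3L1 and CREB3L2 are related membrane-bound factors known to drive secretory genes in cells that make bone and cartilage matrix. Valve interstitial cells secrete the collagens and proteoglycans of the leaflet, so this machinery carries a heavy load in them.

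The gene counts summed to between 57075793 and 67371523 per library in the control and OIM groups and to between 46773376 and 48270827 in the bFGF group. TMM, a scaling that assumes most genes do not change, gave factors of 0.937 to 0.967 in the first 2 groups and 1.103 to 1.111 in the bFGF libraries. Scaled by library totals alone, the median log2 fold change of all 13662 tested genes in bFGF against OIM moved by 0.22, so changes below are TMM-scaled, and totals-scaled values are given beside many of them. No pair of libraries agreed within counting noise. Of the interstitial markers VIM, COL1A1, COL1A2, COL3A1, PDGFRA, PDGFRB, THY1, DCN, LUM and S100A4, all 10 were detected, and together they took 5.94% to 6.58% of the counts in control and OIM libraries and 4.18% to 4.20% in bFGF libraries. In bulk RNA, fewer cells of a type and less RNA per cell cannot be told apart.

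Compared per length in the control libraries, the most abundant of the 40 genes were CALR, which encodes the lectin chaperone calreticulin, at 577 ± 16 RPKM (SD, n = 3), and the disulfide isomerase genes P4HB at 551 ± 28 and PDIA3 at 525.5 ± 1.9 RPKM. They ranked 69, 74 and 81 among 13614 tested genes with an exon length. HSPA5, which encodes BiP, the central HSP70 chaperone of the ER, followed at 290 ± 5.6 RPKM, and HSP90B1, the ER member of the HSP90 family, at 209 ± 5.8 RPKM. Among the sensors, ATF6 stood at 44.8 ± 0.75 RPKM, EIF2AK3 at 21.5 ± 0.53 RPKM and ERN1 at 7.86 ± 0.33 RPKM, in an order wider than the spread between libraries. DERL3, a derlin of the degradation channel, had 0 to 14 counts in any library and was not tested. SDF2L1, which encodes a partner of BiP and DNAJB11, had only 27 to 68 counts, so its values are the least precise of the 39.

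Part of the regulation of this pathway runs through short promoter elements, and these are shown for the genes whose RNA is compared below. The ER stress response element (ERSE) is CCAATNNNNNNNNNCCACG, where factors of the ATF6 and XBP1 group recognise the CCACG end. It was searched on both strands from 250 bases before to 50 bases after the start of each RefSeq gene of Sscrofa11.1. It occurred in 16 of 19498 promoters (0.0821%) and in 8 of the 40 genes (20.0%), namely CALR, CANX, CRELD2, DERL3, HSP90B1, HSPA5, PDIA6 and XBP1. The lines below give 5 of them with the element and the 5 bases on either side, read in the direction of the element, with both ends of the element in capitals.
HSPA5, chr1:265934948-265934976, minus strand: cctagCCAATcagcggcctCCACGacggg
HSP90B1, chr5:80531128-80531156, minus strand: actgaCCAATtggaaggagCCACGcttcg
CALR, chr2:66102285-66102313, plus strand: actggCCAATgaaggtcgaCCACGcgttg
CANX, chr2:78915951-78915979, minus strand: cctaaCCAATccccacactCCACGaagaa
XBP1, chr14:46016585-46016613, minus strand: gctggCCAATcgtggagggCCACGatcct
The element of HSPA5 starts before the annotated gene start and ends 7 bases into the gene, so HSPA5 is not counted when only the bases before the start are searched (14 promoters, 0.0718%, and 7 of the 40 genes).

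A compact form of the element, ERSE-II (ATTGGNCCACG), occurred in 19 promoters (0.0974%) and in 5 of the 40 genes, CREB3L2, HYOU1, MANF, SDF2L1 and SEL1L. HYOU1, which encodes a large ER chaperone that exchanges the nucleotide of BiP, held 2 copies. The next lines show the element of 3 genes with its fixed bases in capitals and 5 bases on either side.
CREB3L2, chr18:11533156-11533176, plus strand: attcgATTGGtCCACGctctg
SEL1L, chr7:104283349-104283369, plus strand: ttccgATTGGaCCACGgtctc
MANF, chr13:33658168-33658188, minus strand: cccccATTGGtCCACGcgcct
The 8-base element TGACGTGG, called the unfolded protein response element (UPRE), occurred in 142 promoters (0.728%) and in HYOU1, KDELR3 and SEC23A. In HYOU1 it overlaps a copy of ERSE-II. When only the bases before the gene start were searched it occurred in 106 promoters (0.544%) and, among the 40 genes, in HYOU1 alone, so the copies of KDELR3 and SEC23A lie in the bases after the start. Both copies that lie apart from the other elements are shown, since KDELR3 and SEC23A were among the genes that changed.
KDELR3, chr5:9515707-9515724, plus strand: ggcggTGACGTGGccaga
SEC23A, chr7:61113772-61113789, plus strand: cccttTGACGTGGcagag
A match describes letters of the reference and does not show a factor bound there.

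The comparison of OIM with control asks whether osteogenic medium alone altered these genes. No gene of the 39 was called by the 2 limits used here, an adjusted p no higher than 0.05 and a log2 fold change of 0.5 or more in either direction, in edgeR's quasi-likelihood test, and DESeq2 called 0 as well. At an unadjusted p under 0.05, 3 were higher and 9 lower, where 14.2% and 12.0% of all genes were, and 0 of the 12 reached the fold limit. Of all tested genes, 1.49% were called higher and 0.864% lower. The log2 fold changes of the 39 lay between -0.21 and 0.17, with a median of -0.06 against 0.00 for all genes. At the adjusted p alone, 4 genes were lower, against 5.87% of all genes. These were EDEM1 (-0.21), SEL1L (-0.17), P4HB (-0.17) and PDIA3 (-0.15), the first 2 from ER-associated degradation and the others disulfide isomerases. CREB3L2 alone was higher at that limit (0.17), against 7.69% of all genes. The 3 OIM libraries all lay below the 3 control libraries in 14 of the 39 genes, against 14.2% of all genes, and all above them in 4, against 14.5%.

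The comparison of bFGF with OIM asks what the growth factor changed in cells already in osteogenic medium. With TMM scaling 11 of the 39 genes (28.2%) were called lower and 0 higher, where 18.4% and 17.7% of all tested genes were called in these directions. With library totals alone 4 were called lower and 1 higher, where 12.4% and 27.3% of all genes were. The 11 were DNAJB9, KDELR3, SEC24D, HERPUD1, SDF2L1, CREB3L2, MIA3, CREB3L1, SEC23A, EIF2AK3 and XBP1, from -1.27 to -0.55 on the log2 scale. DESeq2 likewise called 11 lower and 0 higher. At the adjusted p alone 29 genes were lower and 4 higher, where 33.5% and 33.8% of all genes passed. By library totals 18 genes were lower and 10 higher at the adjusted p, where 21.7% and 49.0% of all genes passed. The 3 bFGF libraries lay below every OIM library in 29 of the 39 genes and above every one in 4, against 35.8% and 36.3% of all genes. The median log2 fold change of the 39 was -0.32 against 0.00 for all genes, and by library totals it was -0.10 against 0.22. The difference of -0.32 is the same on either scale because the change of scaling shifts every gene by nearly the same amount, so it is no separate check. DNAJC3, at -0.499, fell just short of the fold limit, and XBP1, at -0.55, was the nearest gene past it.

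**Figure D1:**
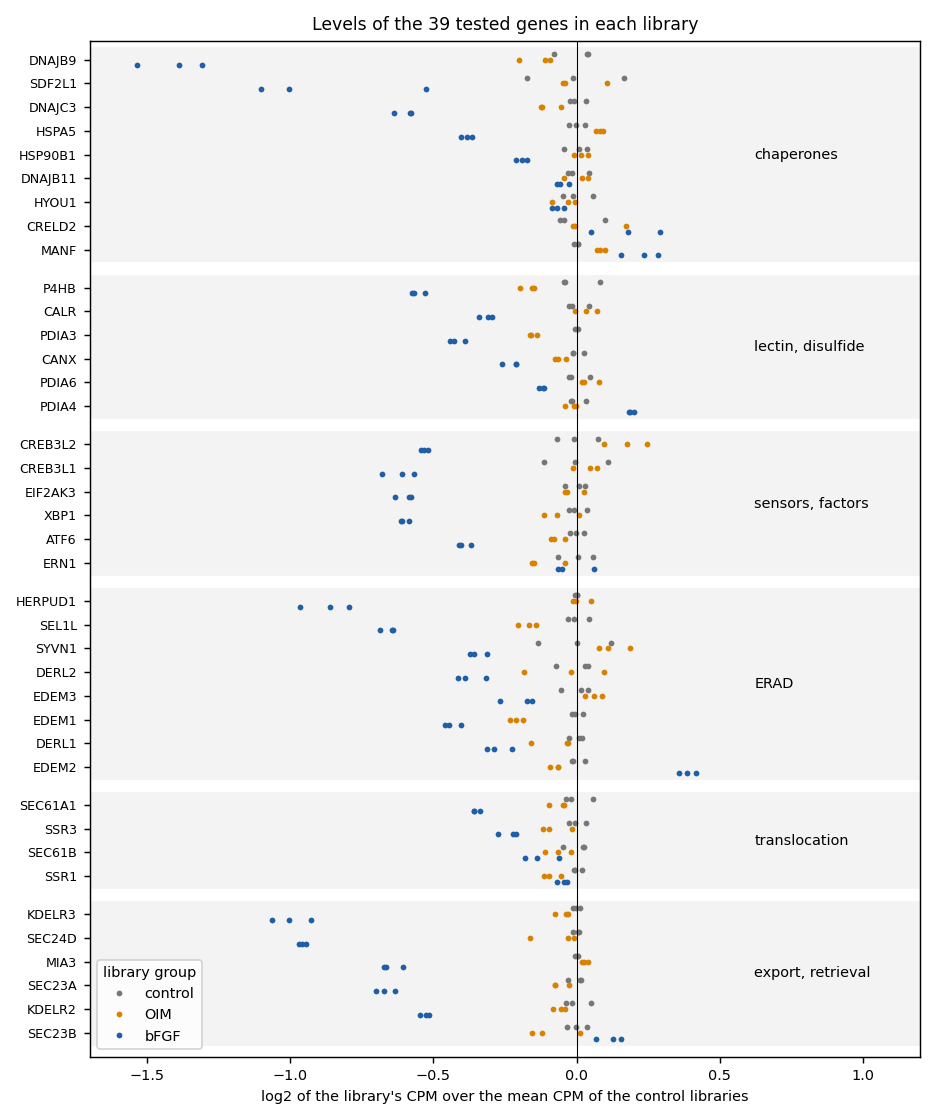
Log2 of each library's TMM-scaled CPM over the mean of the 3 control libraries (x axis) for the 39 tested genes, ordered within 6 roles (y axis), with 1 dot per library in grey for control, orange for OIM and blue for bFGF. The blue dots lie left of all orange dots in 29 genes and right of them in 4 (EDEM2, MANF, PDIA4 and SEC23B).

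**Figure D2:**
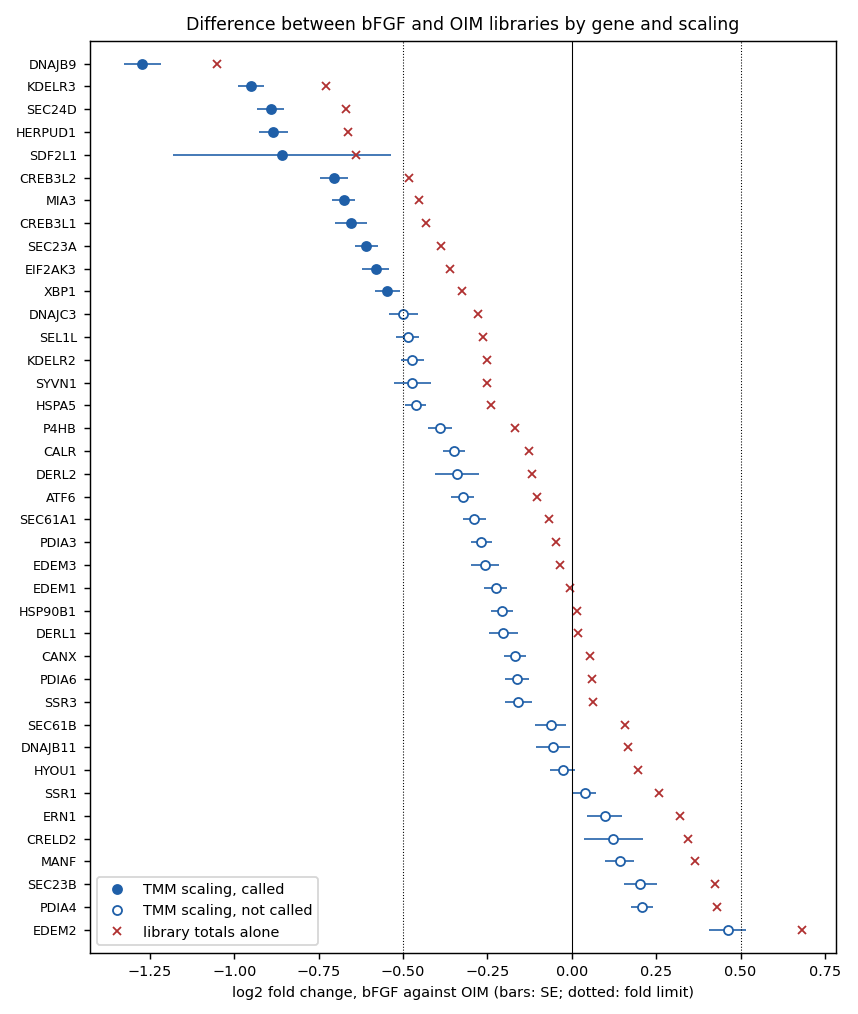
Log2 fold change of bFGF against OIM (x axis) for each of the 39 genes (y axis), with blue circles and SE bars for TMM scaling, filled where called, and red crosses for library totals alone. Filled circles mark 11 genes below -0.5, and the crosses of 4 of them (DNAJB9, KDELR3, SEC24D and HERPUD1) are called under that scaling too.

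The sensors and transcription factors held 4 of the 11 called genes, out of 6, with a group median of -0.56 by TMM and -0.34 by library totals. As for every role below, these calls stand beside the 18.4% of all tested genes that were called lower. CREB3L2, a membrane-bound factor cleaved to reach the nucleus, stood at 399, 441 and 416 CPM in the control libraries, at 496, 447 and 473 CPM in the OIM libraries and at 292, 289 and 287 CPM in the bFGF libraries. All bFGF libraries were below all others, and the OIM libraries were above the control libraries. The change from OIM to bFGF was -0.70 ± 0.042 (SE; adjusted p = 8.5e-12 by edgeR). Its relative CREB3L1, also called OASIS, which is known to drive type I collagen genes in osteoblasts, read 244, 285 and 263 CPM in control, 278, 262 and 273 in OIM and 165, 178 and 173 in bFGF. Control and OIM libraries overlapped, and the bFGF libraries stood apart below them (-0.65 ± 0.048; adjusted p = 2.2e-10). By library totals the fold changes of these 2 genes were -0.48 and -0.43, short of the limit.

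XBP1 encodes the factor that IRE1 activates by splicing its mRNA, and gene counts hold no measure of that splicing. It read 217, 224 and 215 CPM in control, 209, 202 and 220 in OIM and 143.5, 146 and 143.1 in bFGF. Control and OIM overlapped and bFGF was lower in 3 of 3 libraries (-0.55 ± 0.038; adjusted p = 1.0e-10). EIF2AK3, which encodes the kinase PERK that slows translation under ER stress, read 101, 103 and 97.8 CPM in control, 102, 98.2 and 97.6 in OIM and 67.1, 67.4 and 64.8 in bFGF. It showed the same pattern at -0.58 ± 0.041 (adjusted p = 1.1e-10). Totals scaling put XBP1 at -0.32 and EIF2AK3 at -0.36, again short of the limit.

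ATF6, the sensor that is itself cut into a transcription factor, read 354, 347 and 343 CPM in control, 329, 327 and 338 in OIM and 270, 263 and 262 in bFGF. The 3 groups did not overlap, and the change from OIM to bFGF passed the adjusted p but not the fold limit (-0.32 ± 0.033; adjusted p = 4.0e-08), and by library totals it was -0.10. ERN1, the gene of the sensor IRE1, read 51.5, 56.0 and 53.9 CPM in control, 52.3, 48.2 and 48.5 in OIM and 51.9, 51.4 and 56.1 in bFGF. Its groups overlapped and its fold change was 0.10 ± 0.052 (adjusted p = 0.11), and by library totals it was 0.32 and passed the adjusted p (1.6e-05 by edgeR). Of the 3 sensors, EIF2AK3 was thus the one called, and the difference between the sensors' changes was not tested.

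**Figure D3:**
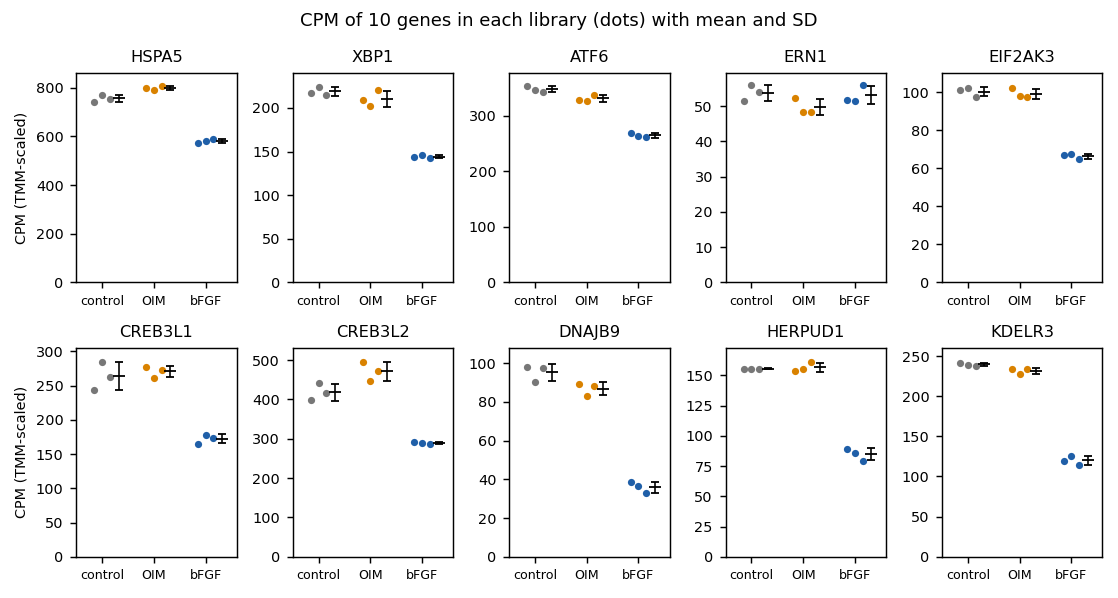
TMM-scaled CPM (y axis, from 0) of 10 genes in the control, OIM and bFGF libraries (x axis), with 1 dot per library and a black bar for the mean ± SD (n = 3). The 3 bFGF dots lie below the OIM dots in every panel except ERN1, where the groups overlap.

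Among the 9 chaperones and co-chaperones, 2 were called lower (22.2%, near the 18.4% of all tested genes) and 0 higher, with a median of -0.21 by TMM and 0.02 by library totals. DNAJB9, an ER J-protein known to bind unfolded proteins and to hold IRE1 inactive, changed most of all 39 genes. Its gene spans chromosome 18 from 36578928 to 36584211 in Sscrofa11.1, on the minus strand. DNAJB9 read 97.8, 90.2 and 97.7 CPM in control, 89.2, 82.9 and 88.3 in OIM and 38.5, 36.4 and 32.9 in bFGF. The highest bFGF library, at 38.5 CPM, lay far below the lowest of the others, at 82.9 CPM. The change from OIM was -1.27 ± 0.055 (adjusted p = 6.7e-14), a 2.42-fold lower level, and by library totals it was -1.05.

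HSPA5 lies on chromosome 1 from 265930044 to 265934959, on the minus strand. It read 742, 771 and 755 CPM in control, 799, 791 and 806 in OIM and 572, 580 and 587 in bFGF. The OIM libraries lay above the control libraries by 0.08 on the log2 scale (adjusted p = 0.10) and the bFGF libraries lay below both, by -0.46 ± 0.031 against OIM (adjusted p = 6.8e-11), or -0.24 by library totals, which is short of the fold limit on either scale. SDF2L1, the rare transcript, was called at -0.86 ± 0.32 (adjusted p = 0.024), and its call was lost by library totals (-0.64; adjusted p = 0.086) and in 4 of 9 fits that left out a library. In those fits its adjusted p by edgeR was 0.065 without OIM replicate 1, 0.052 without OIM replicate 2, 0.079 without bFGF replicate 1 and 0.066 without bFGF replicate 3.

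The other 6 chaperone genes were not called. DNAJC3, a co-chaperone of BiP, stood at -0.499 on the log2 scale, or -0.28 by library totals, and with TMM crossed the limit in 6 of the 9 fits without a library, with values of -0.51 to -0.50. These were the fits without control replicate 1 (-0.501), 2 (-0.5004) or 3 (-0.5001), OIM replicate 3 (-0.51) or bFGF replicates 1 (-0.51) or 2 (-0.51). HSP90B1 had a fold change of -0.21 by TMM and 0.02 by totals. DNAJB11 (-0.06), HYOU1 (-0.03) and CRELD2 (0.12) passed neither limit by TMM. By library totals they stood at 0.17, 0.19 and 0.34 and passed the adjusted p (0.0065, 0.00012 and 0.0015 by edgeR) but not the fold limit. MANF, a small secreted protein that binds BiP, was higher at the adjusted p alone (0.14 ± 0.042; adjusted p = 0.0057) with 75.0, 74.5 and 76.1 CPM in OIM and 83.4, 79.1 and 86.4 CPM in bFGF, and by totals it was at 0.36.

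The lectin chaperones and disulfide isomerases held 0 called genes of 6 in either direction, with a median of -0.22 by TMM and 0.00 by library totals. At the adjusted p alone, 5 were lower and 1 higher. P4HB, which is both a disulfide isomerase and the beta subunit of the collagen prolyl hydroxylase, had the largest decrease (-0.39, or -0.17 by totals). An antisense lncRNA, LOC110255936, overlaps 7.46% of its exon bases but had at most 6.90 estimated counts in a library. CALR followed at -0.35 (-0.13 by totals), PDIA3 at -0.27, calnexin (CANX) at -0.17 and PDIA6 at -0.16, and by totals PDIA3 was at -0.05 (adjusted p = 0.19 by edgeR), CANX at 0.05 (0.17) and PDIA6 at 0.06 (0.13), which left CALR and P4HB lower at the adjusted p. PDIA4 went the other way, with 311, 310 and 303 CPM in OIM and 354, 354 and 358 CPM in bFGF (0.21 ± 0.033; adjusted p = 1.4e-05), or 0.43 by totals.

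Several of these proteins are held in the ER by the amino acids KDEL at their end, the signal that the KDEL receptors read. The last 4 codons spelled KDEL in 5 of the 40 genes (CALR, EDEM3, HSP90B1, HSPA5 and PDIA6) and in 9 of 19480 coding genes (0.0462%). The related ends [KHR][DEN]EL other than KDEL stood in P4HB, PDIA4 and SDF2L1 and in 37 coding genes (0.19%). Of these, 4 ends are shown from RefSeq Sscrofa11.1 with the codons of the signal in capitals and the stop codon in lower case.
HSPA5, chr1:265930394-265930408, minus strand: AAAGATGAGTTGtag
HSP90B1, chr5:80512455-80512469, minus strand: AAAGATGAACTGtaa
CALR, chr2:66098864-66098878, minus strand: AAGGATGAGCTGtag
P4HB, chr12:1130467-1130481, plus strand: AGAGACGAGCTGtga
The 8 genes with an end of these patterns had a median of -0.30 in bFGF against OIM with 1 called lower. The 31 tested genes without one had -0.32 with 10 called lower, where 18.4% of all tested genes were called lower. The genes without one include HYOU1 (NDEL), PDIA3 (QEDL), CRELD2 (REDL) and MANF (RTDL), whose similar ends fall outside the patterns searched. The split is therefore not one of retained against other proteins.

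Of the 8 tested genes of ER-associated degradation (ERAD), which sends misfolded protein back to the cytosol for the proteasome, 1 was called lower and 0 higher, with a median of -0.30 by TMM and -0.08 by library totals. That gene was HERPUD1, which encodes a membrane scaffold of the SYVN1 ubiquitin ligase and lies on chromosome 6 from 18901171 to 18913427, on the plus strand. It read 155, 156 and 155.5 CPM in control, 154, 155 and 161 in OIM and 89.5, 85.6 and 79.5 in bFGF. Control and OIM overlapped and bFGF was far below, at -0.88 ± 0.043 (adjusted p = 3.2e-13), a 1.85-fold lower level. Its ligase partners SEL1L (-0.49) and SYVN1 (-0.47) passed the adjusted p and stayed short of the fold limit, and by totals they were at -0.26 and -0.25.

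The mannosidase-like genes EDEM1, EDEM2 and EDEM3, whose products mark misfolded glycoproteins, differed in sign. EDEM2 read 27.2, 27.2 and 26.7 CPM in OIM and 36.5, 38.0 and 37.2 CPM in bFGF, higher in 3 of 3 libraries (0.46 ± 0.054; adjusted p = 2.5e-07) and called under totals scaling alone (0.68). EDEM1 was at -0.23 and EDEM3 at -0.26, both past the adjusted p only, and DERL2 (-0.34) and DERL1 (-0.20) were likewise lower at the adjusted p. By library totals none of the 4 passed it, with EDEM1 at -0.0043 (adjusted p = 0.91 by edgeR), EDEM3 at -0.04 (0.46), DERL2 at -0.12 (0.11) and DERL1 at 0.02 (0.68).

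The 4 translocation genes had 0 calls and a median of -0.11 by TMM and 0.11 by totals. SEC61A1, the pore of the channel, was at -0.29 and SSR3, a subunit of the translocon-associated complex, at -0.16, both past the adjusted p by TMM. By totals they stood at -0.07 (adjusted p = 0.074 by edgeR) and 0.06 (0.18). SEC61B (-0.06) and SSR1 (0.04) passed neither limit by TMM, and by totals they stood at 0.16 and 0.26 and passed the adjusted p alone (0.0053 and 2.0e-06 by edgeR).

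Export and retrieval held 4 called genes of 6, with a median of -0.64 by TMM and -0.42 by library totals. KDELR3, a KDEL receptor with its gene on chromosome 5 from 9505205 to 9515723, on the minus strand, read 242, 239 and 238 CPM in control, 234, 227 and 234 in OIM and 119, 126 and 114.5 in bFGF. The highest bFGF library, at 126 CPM, was below the lowest of the others, at 227 CPM (-0.95 ± 0.039; adjusted p = 2.2e-14), a 1.93-fold lower level. SEC24D, the COPII adaptor that selects cargo, was near it at 437, 393 and 431 CPM in OIM and 228, 226 and 224 CPM in bFGF (-0.89 ± 0.039; adjusted p = 6.2e-14). MIA3, also called TANGO1, which loads bulky collagens into COPII carriers, was at -0.68 ± 0.034. SEC23A, part of the inner COPII coat, was at -0.61 ± 0.035, and these 2 lay at -0.45 and -0.39 by totals. KDELR2 was at -0.47, or -0.25 by totals, short of the fold limit.

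SEC23B, the close relative of SEC23A, was higher, with 58.5, 65.7 and 59.9 CPM in OIM and 71.2, 72.5 and 68.3 in bFGF (0.20 ± 0.049; adjusted p = 0.0011), or 0.42 by totals. The ratio of SEC23A to SEC23B counts within a library does not depend on scaling. This pair and the other gene pairs below were chosen after their values were seen, so their ratios are a description, with no test. It was 4.40 ± 0.053 in control, 4.498 ± 0.30 in OIM and 2.56 ± 0.062 in bFGF (SD, n = 3). The ratio of KDELR3 to KDELR2 was 0.544 ± 0.019, 0.547 ± 0.0023 and 0.393 ± 0.023 in the same order. The ratio of EDEM2 to EDEM1 was 0.0739 ± 0.00035 in control, 0.0812 ± 0.00079 in OIM and 0.131 ± 0.0019 in bFGF. In these 3 pairs no bFGF library overlapped an OIM library.

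Within the chaperones, the ratio of DNAJB9 to HSPA5 was 0.126 ± 0.0079 in control, 0.109 ± 0.0036 in OIM and 0.0620 ± 0.0057 in bFGF. That of MANF to HSPA5 was 0.0939 ± 0.0014, 0.0941 ± 0.00025 and 0.143 ± 0.0060, and that of PDIA4 to P4HB 0.236 ± 0.0069, 0.261 ± 0.0017 and 0.396 ± 0.0046. CREB3L1 to CREB3L2, by contrast, gave 0.575 ± 0.013 in OIM and 0.595 ± 0.026 in bFGF, with overlapping libraries, and 0.631 ± 0.017 in control. The bFGF and OIM libraries also overlapped in the ratios of KDELR2 to HSPA5 (0.583 ± 0.0079 in control, 0.530 ± 0.0061 in OIM and 0.527 ± 0.0079 in bFGF) and of SEL1L to SYVN1 (7.84 ± 0.90, 6.35 ± 0.19 and 6.29 ± 0.24). In these 3 pairs all control libraries lay above all OIM libraries.

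**Figure D4:**
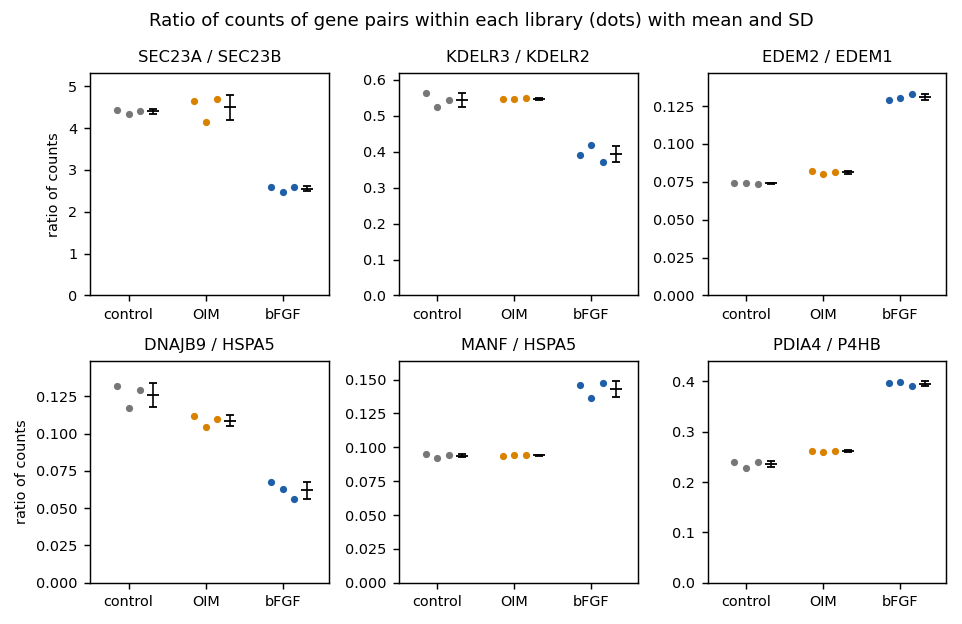
Ratio of the counts of 6 gene pairs within each library (y axis, from 0) in the control, OIM and bFGF groups (x axis), with 1 dot per library and a black bar for the mean ± SD (n = 3). The bFGF dots stand apart from the OIM dots in all 6 pairs, lower for SEC23A over SEC23B, KDELR3 over KDELR2 and DNAJB9 over HSPA5, and higher for the other 3. The 6 pairs were picked after their values were seen, and CREB3L1 over CREB3L2, KDELR2 over HSPA5 and SEL1L over SYVN1, in which the libraries overlap, are not drawn.

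Set against the promoter elements shown above, the 12 tested genes with an ERSE or ERSE-II had a median of -0.28 in bFGF against OIM, with 3 called lower (CREB3L2, SDF2L1 and XBP1). The 27 without either had a median of -0.32, with 8 called lower. Both counts stand beside the 18.4% of all tested genes that were called lower. DNAJB9, KDELR3, SEC24D and HERPUD1, the 4 genes with the most negative fold changes, held neither element in the window searched. KDELR3 held the UPRE shown above, and SDF2L1, the next gene at -0.86, held an ERSE-II.

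Against control, the bFGF libraries gave 15 genes called lower and 0 higher, beside 20.0% and 18.9% of all genes. This comparison shares the bFGF libraries with the one above. The 15 ranged from DNAJB9 (-1.41) to KDELR2 (-0.53) and included SEL1L (-0.66), DNAJC3 (-0.60) and P4HB (-0.56). DESeq2 likewise called 15 and 0. At an unadjusted p under 0.05, 30 genes were lower and 4 higher, where 36.8% and 35.5% of all genes were. By library totals 22 were lower and 10 higher at the adjusted p alone, where 23.0% and 48.8% of all genes were. By library totals 4 were called lower and 1 higher, where 13.5% and 28.8% of all genes were. The median was -0.37, or -0.15 by totals against 0.21 for all genes. CREB3L2 was at -0.53, and at -0.49 and not called without control replicate 2. SDF2L1 lost its call without control replicate 1 (adjusted p = 0.070), bFGF replicate 1 (0.080) or bFGF replicate 3 (0.067).

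Other genes of the pathway and of its cargo, in 9 lists with 175 tested genes, were mixed in bFGF against OIM, with 49 called lower (28.0%) and 10 higher (5.71%) by TMM, where 18.4% and 17.7% of all tested genes were. Of the 49, 15 were among the 18 tested genes of the secreted matrix cargo, as was 1 of the 10 higher. These are products that the pathway carries, and they raised the pooled share called lower. By library totals 28 of the 175 were lower and 18 higher, where 12.4% and 27.3% of all tested genes were. Among 31 other folding genes 7 were lower and 2 higher (median -0.08, or 0.14 by totals). They included SELENOM, an ER selenoprotein, at -1.33, and TMX1, a membrane thioredoxin, at 0.75. Among 21 other ERAD genes 7 were lower and 0 higher (median -0.30, or -0.08 by totals), led by HERPUD2 (-1.28), the relative of HERPUD1. The 23 other translocation genes had 2 lower, with TRAM1 of the translocon at -0.76, and 1 higher, the signal peptidase subunit SPCS3 at 0.90 (median -0.15, or 0.07 by totals). The 12 subunits of the oligosaccharyltransferase, the enzyme that attaches N-glycans, had 0 lower and 2 higher, with TMEM258 at 0.54 (median -0.03, or 0.19 by totals).

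The 32 other COPII genes had 6 lower and 2 higher (median -0.25, or -0.03 by totals), with the cargo receptors TMED3 at -0.94 and TMED5 at 0.67. The 13 COPI genes had 3 lower and 0 higher (median -0.27, or -0.05 by totals), led by COPZ2 (-1.61), a coat subunit. The third KDEL receptor gene, KDELR1, was at -0.31 and not called. Among 11 other ER-bound factors and their proteases 3 were lower and 1 higher (median 0.03, or 0.26 by totals). They included INSIG2, which holds the sterol sensor in the ER, at -0.96, and the rare CREB3L4 at 1.42. In OIM against control, 1 gene of this list was higher, INSIG1 (0.53), and 1 stress transcript was lower, TXNIP (-2.70). Each is 0.571% of the 175 genes, where 1.49% of all tested genes were called higher and 0.864% lower. INSIG1 was not called without control replicate 2 (0.49), and without OIM replicate 2 a second gene, THBS2 of the matrix cargo, was called higher (0.52).

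Of 14 transcripts induced downstream of PERK and IRE1 under stress, 6 were lower and 1 higher in bFGF against OIM (median -0.39, or -0.17 by totals), where 18.4% and 17.7% of all tested genes were called. ATF4, the factor translated when PERK is active, was at 0.10 ± 0.031 and not called. DDIT3, also called CHOP, was at -0.99 ± 0.10 (adjusted p = 4.9e-08), with means of 22.5 CPM in OIM and 11.3 CPM in bFGF. ATF3 was at -1.59 and the BH3-only gene BCL2L11 at 0.95. Among the 9 lists of other pathway genes, the largest share of calls was in the secreted matrix cargo, with 15 of 18 genes lower and 1 higher (median -0.99 by TMM and -0.77 by totals), from THBS2 at -3.73 to POSTN at 1.46. This list took 13.2% to 14.5% of all counts in control and OIM libraries and 7.14% to 7.30% in bFGF libraries. The 40 genes together took 1.14% to 1.15% in control, 1.11% to 1.12% in OIM and 1.01% to 1.02% in bFGF, so that their sum over that of the cargo was 0.0808 ± 0.0016 in control, 0.0817 ± 0.0028 in OIM and 0.140 ± 0.0017 in bFGF.

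**Figure D5:**
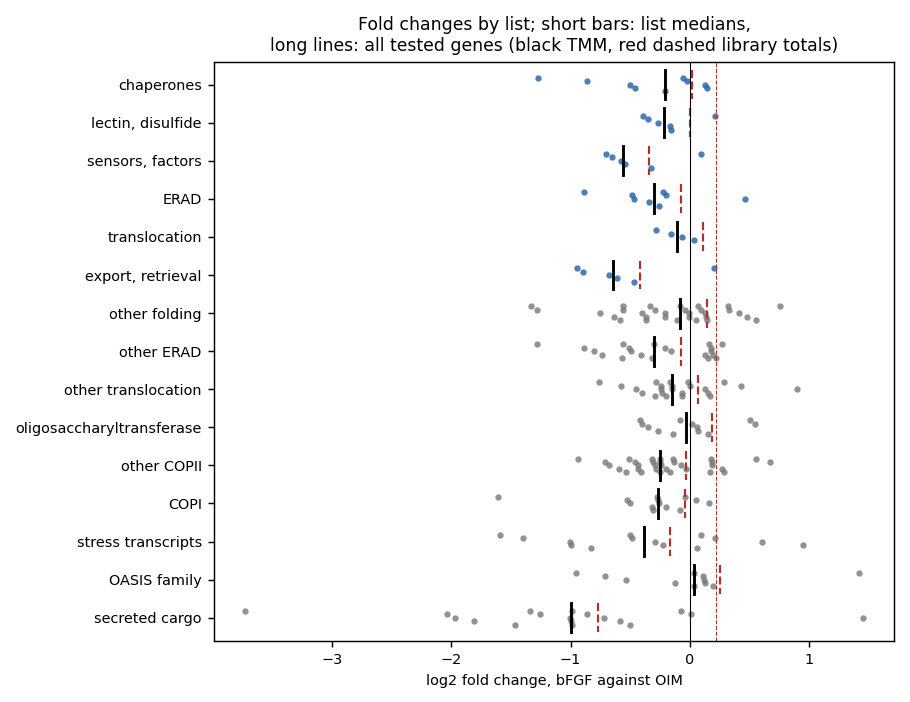
Log2 fold change of bFGF against OIM (x axis) for each tested gene of the 6 roles (blue dots) and of 9 lists of other pathway genes (grey dots), with black bars at the list medians by TMM and red dashed bars at the medians by library totals. Long lines mark the median of all tested genes, at 0.00 by TMM and 0.22 by totals, and the secreted cargo lies farthest left with a median of -0.99.

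Markers of cell state and of other cells moved with the bFGF group, and the counts of called markers stand beside 18.4% of all tested genes called lower and 17.7% called higher. Of 5 myofibroblast markers 4 were lower against OIM, with MYH11 at -5.64 and a list median of -3.04, and POSTN was higher. Their sum ranged over 10138 to 10661 CPM in control, 10502 to 13629 CPM in OIM and 3174 to 3345 CPM in bFGF. In OIM against control, 1 of the 5 was called higher (MYH11 at 1.13), 3 were higher at the adjusted p alone, and the list median was 0.32, where 1.49% of all genes were called higher and 7.69% passed the adjusted p. Of 10 interstitial markers 4 were lower, with COL1A1 at -1.34, and 2 higher, with S100A4 at 0.82. COL1A1, COL1A2, COL3A1, DCN and LUM of this list are also in the secreted matrix cargo, as is POSTN of the myofibroblast markers. The changes of these lists are therefore not separate observations. Of 8 endothelial markers 6 were higher, with KDR at 2.73, but they summed to only 20.8 to 24.1 CPM in control and OIM and to 36.3 to 38.8 CPM in bFGF. Of 8 leukocyte markers 5 were tested and 2 were lower, with CD163 at -0.88, and CD3E was at 0 in every library. The sum over this list was 14.2 to 17.7 CPM in control and OIM and 8.82 to 9.64 CPM in bFGF. Of the 5 cardiomyocyte markers 4 were in the table, 2 were tested and 0 were called, and TNNT2 and NPPA were at 0 in every library. The part of these markers in the changes of the ER genes was not tested.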

How the data were processed

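RNA-seq of PVICs was analysed in 9 libraries, 3 per group, and groups and replicate numbers came from the sample labels. Per the labels, the authors made the libraries with a ribosomal RNA removal kit and used Trimmomatic, HISAT2 and StringTie on Sscrofa11.1. The methods of the study instead name poly-A selection, Cutadapt and STAR. The counting program and its use of strand are not given in the sources used here. The table deposited by the authors holds whole-number gene counts and, in the same columns, estimated counts of non-coding transcripts and counts of circRNAs, none of them normalized. It also has 19 columns without a name or value, which were not used.

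Gene counts were fitted with edgeR 4.0.16 in R 4.3.3 (filterByExpr, TMM, quasi-likelihood test, 6 residual degrees of freedom from 3 groups). P-values were adjusted by Benjamini-Hochberg across the 13662 tested genes. A gene was called when the adjusted p was no higher than 0.05 and the log2 fold change reached 0.5 in either direction, as in the study. CPM are TMM-scaled, and RPKM divide them by RefSeq exon length. Library totals of 46773376 to 67371523 leave counting error small for all but low genes, beside a common coefficient of variation between libraries of 0.0602. The test was checked on simulated counts.

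Alternatives were DESeq2 1.42.0, median-of-ratios factors, library totals, other filters, only the 2 groups compared, a replicate block, other fold limits and fits without 1 library each. The 40 genes and the lists were chosen with earlier results of these data known. Values in every library and tests are given, by rule, for HSPA5, XBP1, ATF6, ERN1, EIF2AK3, CREB3L1, CREB3L2 and the called gene with the largest change in each direction of each role. For each other list the rule names the same extremes, if the higher group averaged 10 counts or more, and ATF4 and DDIT3. Other genes with such values, and the gene pairs of the ratios, were chosen after their values were seen. MARCHF6, MAN1B1, GET1, GET3, SEC16A, SEC22B, COL6A1, COL6A2 and MYH6 were listed and not analysed here.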

Additional observations from a re-analysis of the deposited data

Results flagged for a closer look

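Outside the gene counts, the deposited table lists 30 circRNAs whose positions lie within 14 of the 40 genes, with 56 counts in the control libraries, 72 in the OIM libraries and 29 in the bFGF libraries, and at most 19 for any one circRNA. By library these were 16, 18 and 22 counts in control, 12, 22 and 38 in OIM and 6, 9 and 14 in bFGF, so OIM replicate 3 held 38 of the 72 OIM counts and the other OIM libraries did not exceed the highest control library. Of these, 5 had 0 counts over the control libraries, which allows up to 3, and more than that in a treated group. They were circRNA_4160 at ATF6 with 5 counts over the OIM libraries, circRNA_4163 at ATF6 with 4, circRNA_6013 at EDEM3 with 5, circRNA_5247 at SEC23A with 6, and circRNA_1150 at P4HB with 6 counts over the bFGF libraries. The counts of circRNA_4160 came from OIM replicate 2 alone, those of circRNA_4163 and circRNA_6013 from OIM replicate 3 alone and those of circRNA_1150 from bFGF replicate 3 alone, so each is 0 without that library. Those of circRNA_5247 were 4 in OIM replicate 1 and 2 in OIM replicate 3. In the other direction, circRNA_1597 at EDEM1 had 3, 7 and 2 counts in the control libraries and 0 in all 6 treated ones. These differences were not tested, and the bound of 3 covers counting error only. Every nonzero count of the 30 circRNAs in a library was 2 or more, so a 0 may stand for a lower count that was not listed. The bound of 3 then does not hold.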

How the results depend on the processing

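DESeq2, median-of-ratios factors, both other filters on low counts and fits of only the 2 groups compared left every count of calls within 1.5 times its value, and each of the 39 genes kept its direction under them in all 3 comparisons. Under library totals the members called lower were 4 in bFGF against OIM and 4 against control, and those called higher 1 and 1. The median of the members moved to -0.10 and -0.15, and the share of higher calls among all calls in bFGF against OIM rose from 49.0% to 68.8%. The other pathway genes were then 18 higher and 28 lower against OIM and 20 and 29 against control. Totals also reversed the sign, in bFGF against OIM, of HSP90B1 (0.015), DERL1 (0.0196), CANX (0.0526), PDIA6 (0.0604), SSR3 (0.063), SEC61B (0.159), DNAJB11 (0.166) and HYOU1 (0.195), and, in bFGF against control, of EDEM3 (0.0261), HSP90B1 (0.032), SEC61B (0.0979), PDIA6 (0.104), HYOU1 (0.159), DNAJB11 (0.174), SSR1 (0.176) and ERN1 (0.207). With no fold limit the members called lower were 29, 30 and 4 and those called higher 4, 4 and 1 (bFGF against OIM, bFGF against control, OIM against control), and the other pathway genes 104, 111 and 23 lower and 39, 37 and 5 higher. With a log2 fold limit of 1, members lower were 1 and 1 in the bFGF comparisons, other genes lower 15 and 21 and higher 2 and 2, and in OIM against control 0 other genes were higher and TXNIP stayed lower. Leaving out each library gave 10 to 12 members lower against OIM, with medians of -0.329 to -0.282, and 14 to 15 against control, with medians of -0.385 to -0.353. In OIM against control the median ranged from -0.061 to -0.029 and the other genes called higher from 0 to 2. It reversed values near 0, of HYOU1 (-0.0495 to 0.0093, positive without OIM replicate 2), of ERN1 in bFGF against control (-0.0589 to 0.011, positive at 0.0016 without OIM replicate 2, 0.0041 without bFGF replicate 2 and 0.011 without control replicate 2), and, in OIM against control, of CREB3L1 (-0.019 to 0.0934), HERPUD1 (-0.0074 to 0.0245), HSP90B1 (-0.0077 to 0.032), DNAJB11 (-0.013 to 0.031), SDF2L1 (-0.072 to 0.0968), CRELD2 (-0.0085 to 0.105), PDIA4 (-0.028 to 4.5e-05) and DERL2 (-0.1002 to 0.041). The cause was not tested.

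Samples sharing a replicate number did not deviate together (correlations of -0.032 to 0.0035 in 9 pairs), so they were fitted without pairing. Whether libraries with the same number shared a preparation cannot be told from these correlations. A replicate block left 11 members lower and 0 higher against OIM, and 15 and 0 against control, and 0 calls in OIM against control, with medians of -0.32, -0.37 and -0.06. Depth limits SDF2L1 and DERL3, and counts alone do not give total RNA per cell.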

Other observations

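A non-coding transcript that overlaps DNAJC3 by 18 bases on the opposite strand, XR_001304354.2 of LOC106507943, had 87.2, 94.9 and 72.8 estimated counts in the control libraries, 68.2, 79.5 and 62.5 in the OIM libraries and 5.39, 1.37 and 1.35 in the bFGF libraries. The bFGF libraries lay below all the others. DNAJC3 itself differed between bFGF and OIM by -0.499 on the log2 scale. Whether the counting used strand is not given in the sources used here, so reads of the shared bases cannot be assigned to one gene or the other.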
